A study of Mus musculus with 8 samples.

Results

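The genes described here handle iron and haem in the mouse brain: Hmox1, Hmox2, Fth1, Ftl1, Tfrc, Trf, Slc40a1, Cp and Slc11a2. They were taken by gene symbol from the gene list of the files, and all 9 were found among 54232 genes. Nuclei had been isolated from a frozen cube of forebrain next to the lesion, and their RNA was sequenced with the 10x Genomics 3′ kit. The animals were Swiss Webster mice, all male and 10 weeks old. The 8 libraries divide into 4 groups of 2, namely control, BCAS, TBI, which stands for traumatic brain injury, and BCAS+TBI, with both surgeries combined. BCAS is given as an abbreviation, which the study's title ties to cerebral hypoperfusion, and the title asks whether hypoperfusion worsens the injury. The replicates are labelled as biological, all groups share the strain, sex and age, and the number of animals per library, the form of the control surgery and the time from surgery to collection are not given in the sources used here.

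Iron reaches the brain bound to transferrin (Trf), which is taken up by cells through the transferrin receptor (Tfrc) and released into the cytosol by the divalent metal transporter Slc11a2. Cells store iron in ferritin, a shell built of heavy (Fth1) and light (Ftl1) subunits, and export it through ferroportin (Slc40a1), helped by the ferroxidase ceruloplasmin (Cp). Haem is broken down to iron, biliverdin and carbon monoxide by the haem oxygenases, of which Hmox1 is the inducible and Hmox2 the constitutive form. Blood in injured tissue is a large source of haem, so haemoglobin RNA was read in the same libraries.

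Much of the control of iron genes acts on their RNA through the iron-responsive element, a short hairpin with a 6-base loop that is bound by the iron regulatory proteins (Aco1 and Ireb2). In the 5′ UTR it blocks translation when iron is low, and in the 3′ UTR it protects the RNA from decay. The hairpins are shown because an RNA measurement can see control of decay but not control of translation. Protein-coding transcripts of GENCODE M21 (GRCm38, the build that the submitters' processing notes name) were searched on the sense strand for CNNNNNCAGTGN whose 5 bases before the loop pair with the 5 bases after it, G-T pairs allowed. Of the 9 genes, 4 held a match, against 294 of 21901 protein-coding genes (1.34%). The loop is in capitals in these windows of 30 bases, written 5′ to 3′ with T for U.
Fth1, 5′ UTR, chr19:9982732-9982761, plus strand: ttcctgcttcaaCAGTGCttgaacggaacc
Ftl1, 5′ UTR, chr7:45459778-45459807, minus strand: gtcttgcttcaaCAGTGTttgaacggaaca
Slc40a1, 5′ UTR, chr1:45925464-45925493, minus strand: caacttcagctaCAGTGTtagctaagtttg
Tfrc, 3′ UTR, chr16:32631219-32631248, plus strand: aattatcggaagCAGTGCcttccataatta
Tfrc, 3′ UTR, chr16:32631598-32631627, plus strand: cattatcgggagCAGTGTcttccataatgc
Tfrc, 3′ UTR, chr16:32631663-32631692, plus strand: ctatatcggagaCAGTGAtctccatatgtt
Tfrc, 3′ UTR, chr16:32631710-32631739, plus strand: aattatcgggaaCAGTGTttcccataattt
The ferritin subunits and ferroportin carried 1 hairpin each ahead of the coding sequence, and Tfrc carried 4 behind it. Hmox1, Hmox2, Trf, Cp and Slc11a2 held no match to these letters. The search required 5 unbroken pairs, so an element of another form would be missed. The lack of a match does not show that a gene lacks an element. A match is a description of sequence and not a measured site.

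The 9 genes differ in length. Ftl1 (chromosome 7, 45457944 to 45459884) and Fth1 (chromosome 19, 9980598 to 9985098) are the shortest, at 1.94 and 4.50 kb from first to last exon, and exons fill 69.0% and 77.1% of them. Hmox1 on chromosome 8 spans 6.97 kb, Slc40a1 on chromosome 1 spans 18.5 kb, Tfrc on chromosome 16 spans 23.9 kb and Trf on chromosome 9 spans 26.4 kb. Slc11a2 on chromosome 15 spans 37.2 kb, Hmox2 on chromosome 16 spans 40.4 kb and Cp on chromosome 3 spans 52.1 kb. In these 7 genes exons fill 5.49% to 48.8% of the length. Near-identical ferritin copies are listed in the same files (Fth-ps2 with 85 UMIs and Ftl1-ps1 with 220 in all libraries, against 68243 for Fth1 and 9649 for Ftl1), and reads shared with such copies could have been split or dropped in counting, so ferritin counts carry that uncertainty.

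The libraries held 28118725 to 56135192 unique molecular identifiers (UMIs, 1 for each captured RNA molecule) and 45560 nuclei after filtering, with medians of 3389 to 6603 UMIs. They fell into 2 sets of 4 by total UMIs, each with 1 library of every group. Set 1 (control 1, BCAS 1, TBI 1 and BCAS+TBI 2) had at most 33363564 UMIs, and set 2 (control 2, BCAS 2, TBI 2 and BCAS+TBI 1) at least 42651388. Set 1 also had more ribosomal protein RNA (0.450% to 0.666% of UMIs against 0.172% to 0.222%) and more mitochondrial RNA (0.819% to 1.39% against 0.405% to 0.612%). These sets were defined here from total UMIs and are not groups of the study, and the labels give no batch. Clusters were named by marker genes into 12 classes, written here as oligodendrocyte-like and so on, and 25.2% of nuclei stayed unnamed, among them a cluster of 4125 nuclei mostly from set 2 and a cluster of 2668 nuclei mostly from set 1. Any 2 libraries shared at most 20 barcodes.

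In kept nuclei, the haemoglobin genes Hba-a1, Hba-a2, Hbb-bs and Hbb-bt were summed as CPM (UMIs of a gene scaled to 1000000 in the library or class). They gave 53.1 and 249 CPM in control 1 and 2, and 306 and 158 CPM in BCAS 1 and 2. They gave 795 and 52.9 CPM in TBI 1 and 2, and 79.9 and 716 CPM in BCAS+TBI 1 and 2. The 2 highest libraries had TBI surgery and belong to set 1, while both other libraries with TBI surgery lay below control 2, so that the groups overlapped. Removed barcodes also held haemoglobin RNA: TBI 1 had 44585 such UMIs over all barcodes and 21748 in kept nuclei, and BCAS+TBI 2 49113 and 17834. Of the haemoglobin RNA in kept nuclei of all libraries together, most sat in few nuclei. A cluster of 302 nuclei led by Hbb-bs and Hba-a1 together with endothelial markers held 68.9% of the Hbb-bs UMIs of kept nuclei, and 17.6% to 84.7% in single libraries. Another unnamed cluster led by haemoglobin genes, of 1862 nuclei, held 6.04% of them, and 0.082% to 18.8% in single libraries. Haemoglobin RNA was also read in neurons, with 31.7 to 89.1 CPM in excitatory neuron-like nuclei of set 1 and 11.8 to 23.9 CPM in those of set 2. The source of this haemoglobin RNA was not tested, and neither was the part of RNA from outside the nuclei in the levels below.

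Levels over whole libraries, which here means all kept nuclei of a library, are taken up first for ferritin. Fth1 was at 366 and 138 CPM in control 1 and 2, at 500 and 84.1 in BCAS 1 and 2, at 521 and 75.2 in TBI 1 and 2 and at 96.1 and 603 in BCAS+TBI 1 and 2. Every library of set 1 was above every library of set 2, and the 4 groups overlapped. Ftl1 was at 47.7 and 26.7 CPM in control, 55.4 and 18.3 in BCAS, 70.7 and 16.9 in TBI, and 16.9 and 66.8 in BCAS+TBI, with replicate 1 named first. The light chain thus showed the same division into 2 sets of libraries as the heavy chain.

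Of the uptake genes, Tfrc was even: 72.6 and 67.7 CPM in control, 74.9 and 62.0 in BCAS, 71.9 and 62.1 in TBI, and 64.1 and 67.3 in BCAS+TBI. Slc11a2 was at 22.1 and 29.1 CPM in control, 27.4 and 21.1 in BCAS, 19.5 and 25.8 in TBI, and 26.7 and 18.7 in BCAS+TBI. Both BCAS+TBI libraries were below both controls for Tfrc, by little, and the groups of Slc11a2 overlapped. The carrier Trf varied most of the 3, with 63.4 and 30.5 CPM in control, 96.2 and 29.9 in BCAS, 89.2 and 9.53 in TBI, and 31.3 and 60.1 in BCAS+TBI. Oligodendrocyte-like nuclei, the named class with most Trf, held 24.1% of its UMIs in kept nuclei. The Trf of most unnamed clusters was not counted separately. The low value of TBI 2 goes with a small share of oligodendrocyte-like nuclei: these were 187 of 7157 nuclei (2.61%) in TBI 2 and 4.43% to 7.33% of nuclei in the other libraries. A cluster with myelin genes that stayed unnamed for its doublet score was also smallest there, with 53 nuclei. In whole-library values, fewer cells of a type and less RNA per cell cannot be told apart. Within oligodendrocyte-like nuclei, Trf in TBI 2 was at 433 CPM, inside the set 2 range of 390.1 to 603 CPM. The cause of the low whole-library value was not tested.

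Of the export genes, Slc40a1 was low, at 4.75 and 5.89 CPM in control, 4.83 and 5.49 in BCAS, 6.22 and 3.95 in TBI, and 5.29 and 3.25 in BCAS+TBI. Cp was at 23.4 and 17.95 CPM in control, 20.3 and 13.9 in BCAS, 24.5 and 12.1 in TBI, and 12.1 and 27.96 in BCAS+TBI. For Cp the 4 libraries of set 1 again lay above the 4 of set 2, and for Slc40a1 they did not. Of the haem oxygenases, Hmox1 was close to the limit of detection, with 155 UMIs in all and 10 to 30 per library. This came to 0.738 and 0.531 CPM in control, 0.386 and 0.388 in BCAS, 1.10 and 0.397 in TBI, and 0.425 and 0.844 in BCAS+TBI, with both BCAS libraries below both controls on few UMIs. Hmox2 was at 38.1 and 30.6 CPM in control, 41.1 and 35.9 in BCAS, 38.0 and 30.2 in TBI, and 31.3 and 38.0 in BCAS+TBI, with overlapping groups and with every library of set 1 above every library of set 2.

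**Figure D1:**
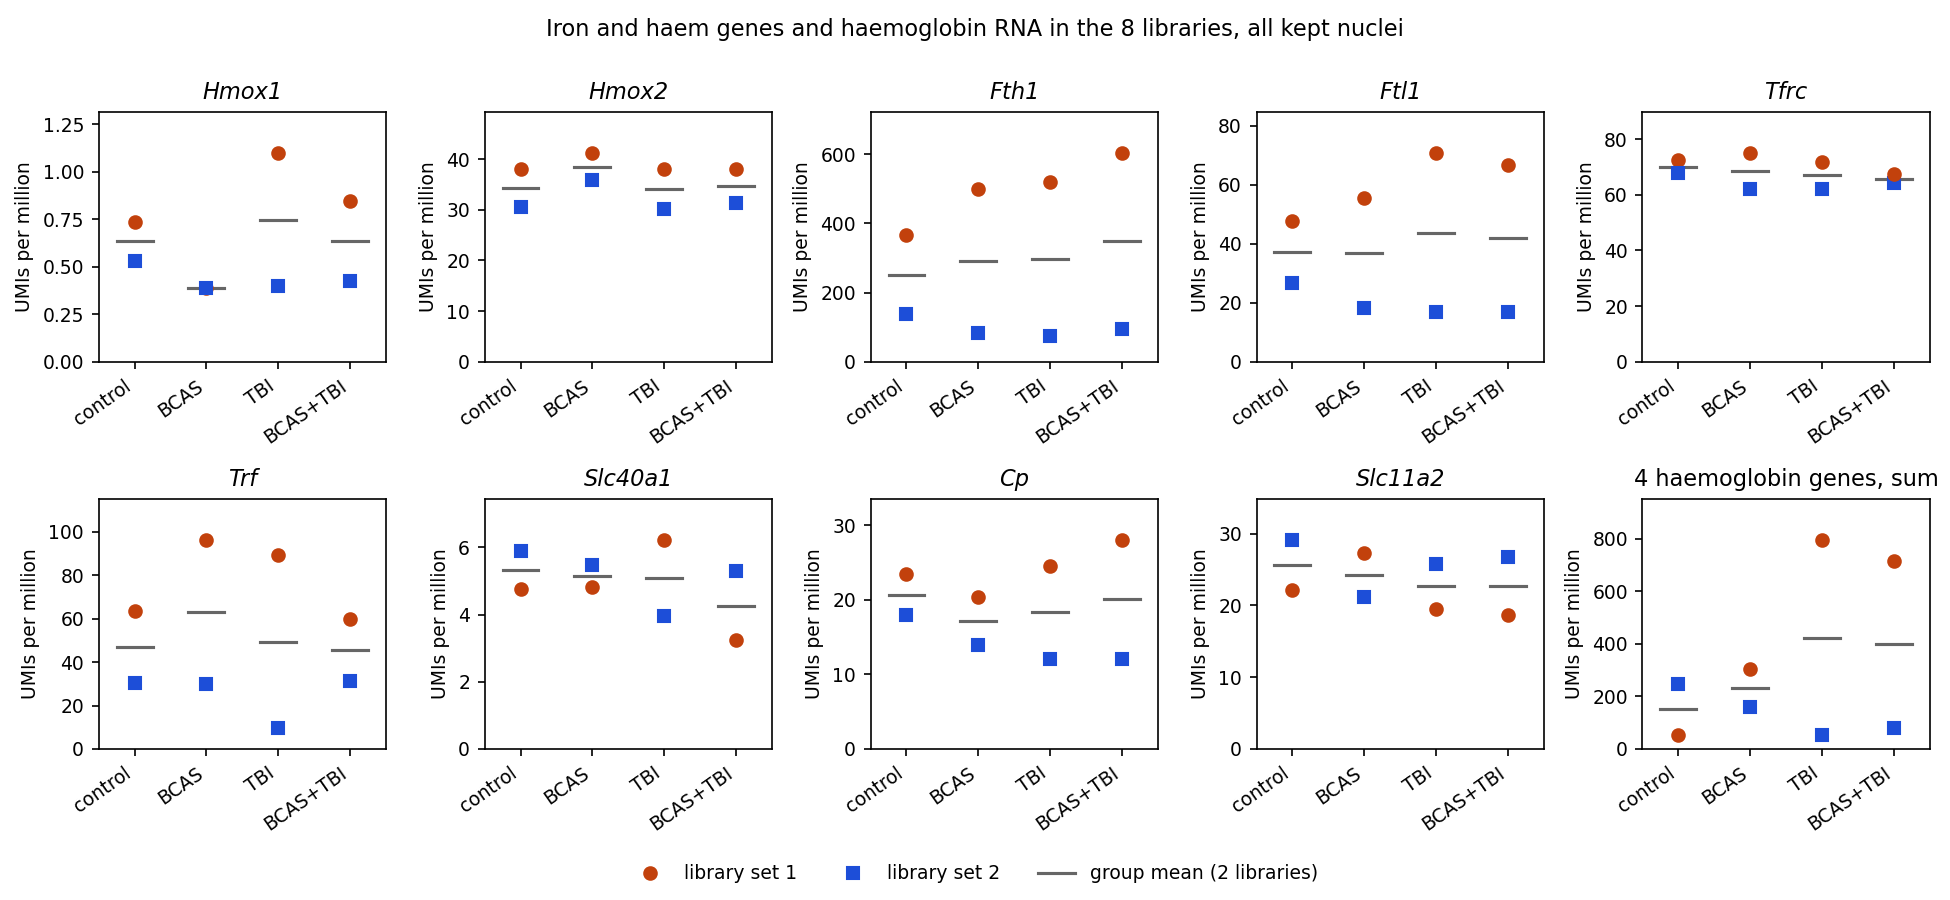
CPM (vertical axis, from 0) of the 9 genes and of the summed haemoglobin genes in the 4 groups, 1 point per library, coloured by library set, with a line at the mean of the 2 libraries. For Fth1, Ftl1, Trf, Cp and Hmox2 every library of set 1 lies above every library of set 2, and in most panels the surgery groups overlap control, Hmox1 in BCAS and Tfrc in BCAS+TBI lying below both control libraries.

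Set beside haemoglobin, the ranking within the sets can be read but not tested, since each set has only 4 libraries and the pooled libraries fall into 2 clusters. In set 1, haemoglobin was 53.1, 306, 795 and 716 CPM in control, BCAS, TBI and BCAS+TBI, and Fth1 was 366, 500, 521 and 603 CPM in the same order. In set 2, haemoglobin was 249, 158, 52.9 and 79.9 CPM, and Fth1 was 138, 84.1, 75.2 and 96.1 CPM. In these kept nuclei, the library with the least haemoglobin was also the one with the least Fth1 in each set. For set 2 this depends on the filter. Over all deposited barcodes, haemoglobin was at 114 CPM in BCAS+TBI 1 and at 145 CPM in TBI 2. Across the sets the match broke down: control 1 and TBI 2 had almost the same haemoglobin level, 53.1 and 52.9 CPM, and 366 against 75.2 CPM of Fth1. Hmox1 in set 1 was lowest in BCAS 1, where haemoglobin was not.

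Which cells carried the genes was read from counts summed over the nuclei of a class in each library. Shares of a gene's UMIs are shares of those in kept nuclei. Since classes come from clusters of the same nuclei, these levels are a description without a test, although the 9 genes, the other iron genes and the haemoglobin genes were left out of the genes used for clustering. CPM from 3′ reads are compared between classes for 1 gene and not between genes. Oligodendrocytes, the iron-rich myelinating cells of the brain, led for Trf and Fth1 among the named classes. Trf in oligodendrocyte-like nuclei was 886 and 603 CPM in control 1 and 2, 1444 and 390.1 in BCAS, 1334 and 433 in TBI, and 504 and 893 in BCAS+TBI. The mean was 811 ± 404 CPM (SD, n = 8 libraries), 7.07 times that of the next class, microglia-like nuclei at 115 ± 41.9, and the ranges of both classes did not overlap. Excitatory neuron-like nuclei had the least Trf, 7.63 ± 3.75 CPM. With nuclei gated singly by at least 3 markers in place of clusters, the oligodendrocyte-like mean was 451 CPM.

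Among the named classes, Fth1 was highest in oligodendrocyte-like nuclei in 8 of 8 libraries, at 1737 and 688 CPM in control, 2822 and 417 in BCAS, 2969 and 515 in TBI, and 528 and 2776 in BCAS+TBI. The mean was 1556 ± 1153 CPM (SD, n = 8), 2.77 times that of endothelial-like nuclei at 562 ± 391, and 919 CPM with single-nucleus gates. Below these the order was mural-like (493), astrocyte-like (424), ependymal-like (385), microglia-like (364) and fibroblast-like (349) nuclei, neighbours that differed by less than their spread, and neurons came last with 163 to 216 CPM. Ftl1 was flatter and led by endothelial-like (125 ± 81.8 CPM), mural-like (113 ± 99.9), microglia-like (99.5 ± 53.7) and oligodendrocyte-like nuclei (95.4 ± 55.7), whose order changed from library to library. Excitatory neuron-like nuclei had the least Ftl1 of all 12 classes, 23.6 ± 13.7 CPM. The unnamed cluster of 302 nuclei with haemoglobin RNA and endothelial markers held more Ftl1 than any named class, 356 to 1141 CPM, and 801 to 3772 CPM of Fth1 (mean 1755, above the oligodendrocyte-like mean), together with 2.80% to 7.34% ribosomal protein RNA. With single-nucleus gates the endothelial-like Ftl1 mean was 536 CPM.

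Among the named classes, Tfrc was highest in endothelial-like nuclei, the cells that carry transferrin across the blood-brain barrier. It was at 438 and 412 CPM in control, 373 and 408 in BCAS, 433 and 509 in TBI, and 573 and 223 in BCAS+TBI, a mean of 421 ± 102 CPM (SD, n = 8). The next class, inhibitory neuron-like nuclei, had 83.7 ± 13.2 CPM and the ranges of both classes did not overlap. Excitatory neuron-like nuclei followed with 63.2 ± 6.02 CPM, and the means of the other classes ran from 57.7 CPM in ependymal-like to 30.5 CPM in fibroblast-like nuclei, with neighbours overlapping. By number of molecules, excitatory neuron-like nuclei held 43.6% of all Tfrc UMIs, and endothelial-like nuclei 4.24%. The excitatory neuron-like level was slightly below the whole-library mean of 67.8 ± 4.94 CPM. The 43.6% is therefore close to the share of all UMIs that this class holds, and is not an enrichment of Tfrc. The unnamed cluster of 302 nuclei had 510 ± 152 CPM of Tfrc and held 5.96% of its UMIs. Slc11a2, which works after Tfrc in the endosome, was nearly flat over the classes, from 18.6 ± 9.27 CPM in endothelial-like nuclei, with only oligodendrocyte precursor-like nuclei lower, to 32.4 ± 19.4 CPM in ependymal-like nuclei, with all neighbours in that order overlapping. Of the 334 ependymal-like nuclei, single-nucleus gates placed 48 as ependymal, 58 as astrocyte and 172 in no class.

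Among the named classes, ferroportin was high in 2. Slc40a1 was at 118 ± 39.8 CPM in endothelial-like nuclei, with 44.6 CPM in BCAS+TBI 2 as the lowest library and 162 CPM in control 1 as the highest, and at 72.5 ± 32.3 CPM in microglia-like nuclei. These 2 classes overlapped, endothelial-like nuclei being higher in 7 of 8 libraries, and the next, ependymal-like nuclei, had 4.46 ± 4.86 CPM. The unnamed cluster of 302 nuclei had 199 ± 78.3 CPM and held 31.6% of all Slc40a1 UMIs. The microglia-like class also held the macrophage gene Cd163 at 19.5 ± 13.2 CPM, and the part of macrophages in its Slc40a1 was not tested. Dropping the nuclei whose UMIs exceeded 3 times the class median gave an endothelial-like level of 182.5 CPM, and single-nucleus gates gave 201.5 CPM. Cp was highest in fibroblast-like nuclei with 433 ± 104 CPM, then in mural-like with 339 ± 82.7 and endothelial-like with 245 ± 68.3. Oligodendrocyte precursor-like nuclei followed with 110 ± 20.8 CPM, above microglia-like nuclei at 54.2 ± 29.6 CPM in 8 of 8 libraries, while astrocyte-like nuclei, which are known for a membrane form of ceruloplasmin, had 9.78 ± 3.26 CPM. With single-nucleus gates the fibroblast-like level of Cp was 868 CPM. Of the 933 fibroblast-like nuclei, these gates placed 222 as fibroblast, 148 as astrocyte and 494 in no class.

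Hmox2 was highest in oligodendrocyte-like nuclei, at 119 and 141 CPM in control, 135 and 123 in BCAS, 141 and 132 in TBI, and 104 and 121 in BCAS+TBI. Microglia-like nuclei came next with 78.3 ± 24.3 CPM and exceeded the oligodendrocyte-like level in 1 of 8 libraries. The means of the other classes lay between 27.8 and 45.8 CPM. Hmox1 was too sparse to order: endothelial-like nuclei had 7 UMIs in all libraries, microglia-like 5, fibroblast-like 5, astrocyte-like 10 and mural-like 0, which allows up to 4.95 CPM (3 counts in 605645 UMIs of the class, counting error only). The haemoglobin-led cluster of 302 nuclei held 13 of the 155 Hmox1 UMIs.

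**Figure D2:**
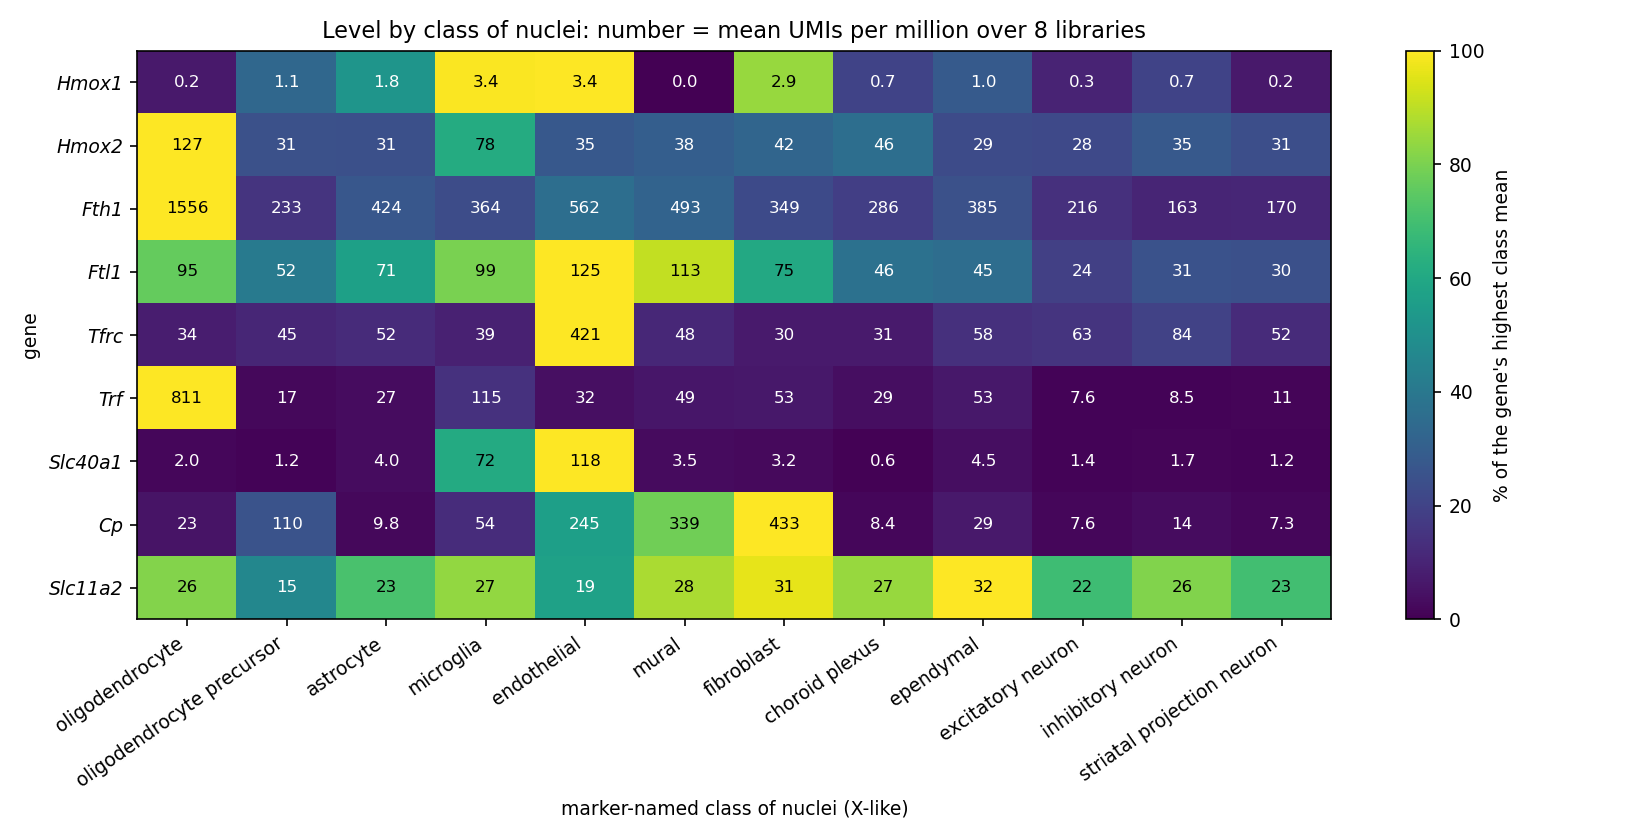
Mean CPM over 8 libraries (numbers) of each gene (rows) in the 12 marker-named classes (columns), coloured by the percentage of the gene's own highest class. Trf, Fth1 and Hmox2 peak in oligodendrocyte-like, Tfrc and Slc40a1 in endothelial-like and Cp in fibroblast-like nuclei, while Slc11a2 is nearly flat.

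Other genes shared these class patterns. By Pearson correlation of log2(CPM + 10) means over the 12 classes, among genes of at least 50 CPM somewhere, the nearest to Slc40a1 were Arap3 (r = 0.99), Pik3r6 (0.99) and Tal1 (0.98). The nearest to Trf were 2210411M09Rik (0.98), Tmem63a (0.97) and Mon2 (0.95), and to Tfrc Mannr (0.94), Fgd5 (0.93) and Slc7a5 (0.93), an amino acid transporter of the blood-brain barrier. Fth1 was nearest to Vps4b (0.96), to Mal, a myelin gene (0.96), and to Ptma (0.96), and Ftl1 to the translation factor Eef1a1 (0.97), Rac1 (0.95) and the ribosomal protein gene Rpl28 (0.95). Cp was nearest to Gm44148 (0.93), Tfpi (0.92) and Lama4 (0.91), and Hmox2 to Zfp638 (0.90), Tbc1d5 (0.89) and Fgd3 (0.89). For Slc11a2 the values were lower, 0.81 for Deptor, 0.81 for Kif16b and 0.79 for Cbfa2t2. These values describe 12 points that share libraries.

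No surgery contrast called any of the 9 genes. Counts were fitted for all genes with edgeR's quasi-likelihood test on all 8 libraries, separately in 11 classes (every library had to hold 20 nuclei of a class), and called at an adjusted p under 0.05 (Benjamini-Hochberg over all class-gene pairs of a contrast). In the classes 61 pairs of a gene and a class could be tested, over 8 genes, since Hmox1 passed the filter on low counts in no class. Of them 0 passed for TBI averaged over BCAS, 0 for BCAS averaged over TBI, 0 for BCAS+TBI against TBI and 0 for the interaction. The share called over all 93676 pairs was 0.0%, 0.0%, 0.0% and 0.00107% in these contrasts. At an unadjusted p under 0.05 there were 0, 0, 0 and 1 of the 61 pairs, and DESeq2 called 0 in each contrast too. Over whole libraries, 0 of the 9 genes passed in any of the 4 contrasts (0.0% of 23965 genes in each), and none had an unadjusted p under 0.05. The 2 libraries of every group lie in different library sets, so the spread used in these fits includes the set difference. With the library set as a block, the counts stayed at 0, beside 0.00747%, 0.0224%, 0.0363% and 0.0715% of all pairs called. At an unadjusted p under 0.05 there were then 2, 1, 2 and 6 of the 61 pairs, beside 4378, 3401, 3930 and 4875 of all 93676.

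The median log2 difference of the 61 pairs was 0.09 for TBI and 0.03 for BCAS, beside 0.01 and -0.0009 over all pairs tested. Fth1 was estimated higher with TBI in 11 of 11 classes and Ftl1 in 10 of 10, none past the threshold, and the classes share libraries, so this is not independent support. Over whole libraries the Fth1 difference with TBI was 0.23 (log2, SE 0.81) and the Ftl1 difference 0.19 (SE 0.56). Within library sets the directions parted. The mean Fth1 level of the 2 libraries with TBI was above that of the 2 without it in 11 of 11 classes in set 1, and in 2 of 11 in set 2. With the set as a block the whole-library difference of Fth1 was 0.00 (SE 0.20) and that of Ftl1 0.02 (SE 0.18). For BCAS, the same comparison of Fth1 was higher in 11 of 11 classes in set 1 and in 0 of 11 in set 2, and its whole-library difference with the block was 0.04 (SE 0.20).

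Whole-library estimates with the block are given here for the other genes. Tfrc differed by -0.06 with TBI and -0.03 with BCAS (log2, SE 0.05 each), and Hmox2 by -0.08 and 0.10 (SE 0.06 each). Cp differed by -0.06 with TBI (SE 0.14) and -0.08 with BCAS (SE 0.14), Slc11a2 by -0.14 and -0.03 (SE 0.14 each) and Slc40a1 by -0.17 and -0.14 (SE 0.20 each). Trf differed by -0.34 and 0.34 (SE 0.31 each), and Hmox1 by 0.34 (SE 0.29) and -0.40 (SE 0.29). These are single standard errors and not intervals. They leave room for changes larger than the error in every gene, and most for Trf and Hmox1.

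**Figure D3:**
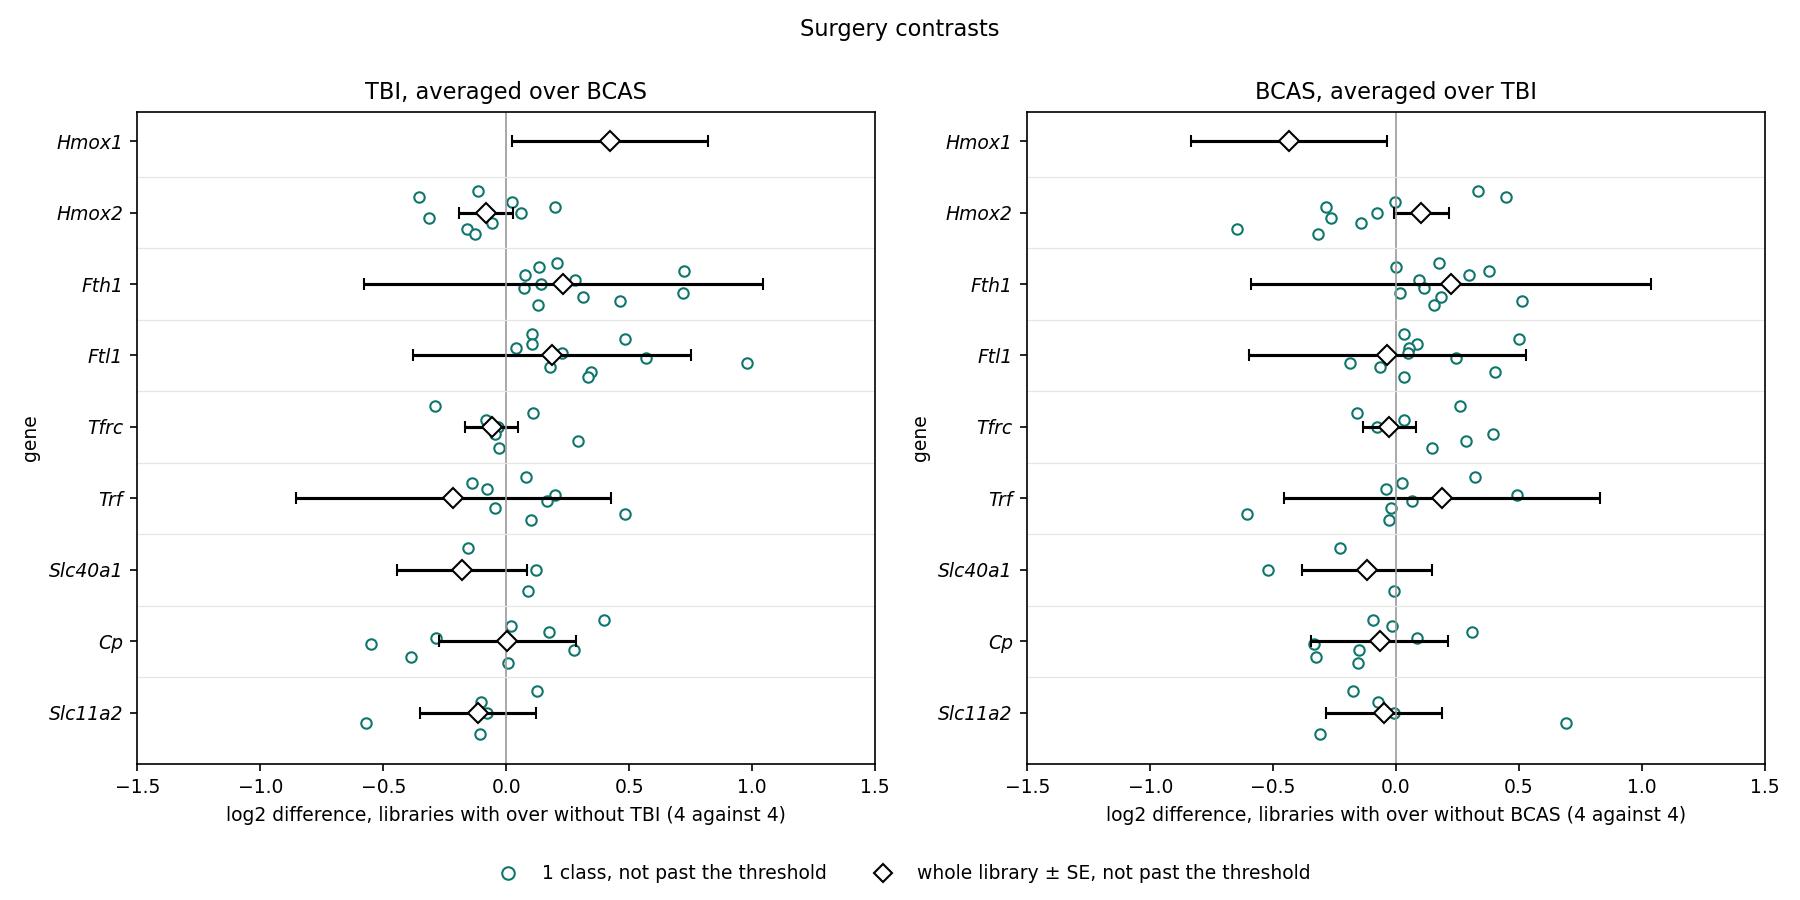
Log2 difference between the 4 libraries with and the 4 without TBI (left) or BCAS (right) for each gene, as circles for single classes and diamonds with SE for whole libraries, without the library set in the model. All symbols are open, since no difference passed the threshold, and Fth1 and Ftl1 have the widest errors beside Trf.

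The pairs that came closest to the threshold are given as values. Slc11a2 in oligodendrocyte-like nuclei was among the first 3 in 3 contrasts, on 104 UMIs. It was at 26.0 and 27.1 CPM in control, 45.1 and 27.7 in BCAS, 16.7 and 10.7 in TBI, and 26.3 and 31.4 in BCAS+TBI. Both TBI libraries were the lowest of the 8. The difference was -0.57 with TBI (log2, SE 0.34), 0.69 with BCAS (SE 0.34) and 1.01 for BCAS+TBI against TBI (SE 0.50), each with an adjusted p of 1. These contrasts share libraries.

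Cp in endothelial-like nuclei came closest to the threshold in the interaction. It was at 202 and 328 CPM in control, 156 and 173 in BCAS, 218 and 247 in TBI, and 319.9 and 312 in BCAS+TBI. The BCAS libraries were the 2 lowest, and the BCAS+TBI libraries lay above both TBI libraries. The interaction was 1.15 (log2, SE 0.52, edgeR adjusted p = 1), and with the library set as a block 1.15 (SE 0.38, edgeR adjusted p = 0.712). Averaged over BCAS, TBI went with a Cp difference of 0.40 in this class (SE 0.26). Fth1 in endothelial-like nuclei, at 507 and 316 CPM in control, 686 and 214 in BCAS, 795 and 328 in TBI, and 268 and 1383 in BCAS+TBI, differed by 0.72 with TBI (SE 0.52), and by 0.57 with the library set as a block (SE 0.23, edgeR adjusted p = 1). In the fit without the block, leaving out BCAS+TBI 2 gave a difference of -0.14. That fit keeps only a set 2 library of BCAS+TBI, so the parts of the library and of the set in its direction cannot be told apart. In set 1, TBI 1 lay above control 1 and BCAS 1. In set 2, the mean with TBI was above the mean without it (log2 ratio 0.17). Haemoglobin in this class was 482 to 31230 CPM in set 1, highest in BCAS+TBI 2, and 158 to 1869 CPM in set 2, and its part in the result was not tested.

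Trf in astrocyte-like nuclei gave an interaction of -1.45 (log2, SE 0.73, edgeR adjusted p = 1), from 20.2 and 15.2 CPM in control, 51.6 and 23.4 in BCAS, 35.6 and 24.6 in TBI, and 14.25 and 32.95 in BCAS+TBI. Leaving out 1 library gave differences from -2.17, without BCAS+TBI 2, to -0.86, without BCAS 1. Hmox2 in inhibitory neuron-like nuclei was at 35.5 and 29.7 CPM in control, 36.7 and 35.9 in BCAS, 45.8 and 35.4 in TBI, and 30.8 and 33.6 in BCAS+TBI. Its interaction was -0.51 (SE 0.30) and its difference between BCAS+TBI and TBI -0.33 (SE 0.21). Both BCAS+TBI libraries were below both TBI libraries, and with single-nucleus gates the latter difference was 0.04. Hmox2 differed with BCAS by -0.65 in oligodendrocyte precursor-like nuclei (SE 0.37; 23.6 ± 6.82 CPM with and 39.1 ± 12.2 without BCAS, SD, 4 libraries each, 96 UMIs). The log2 ratio with over without BCAS was -1.40 within set 1 and -0.02 within set 2, so the difference lay in set 1. In striatal projection neuron-like nuclei Hmox2 differed with BCAS by -0.32 (SE 0.23). Slc40a1 in excitatory neuron-like nuclei, at 1.00 ± 0.41 CPM in BCAS+TBI and 1.86 ± 0.71 in TBI (SD, 2 libraries each), differed by -0.81 (SE 0.53), and by -1.45 without BCAS+TBI 1 and -0.40 without BCAS+TBI 2. These differences, and those of Fth1 and Cp with TBI, had an edgeR adjusted p of 1.

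Calls among these genes were made between the library sets. Of the 61 pairs, 34 passed the edgeR test between set 1 and set 2, fitted with the group as a term, beside 32.7% of all pairs. Of these, 33 were higher in set 1, where 18.0% of all pairs were, and 1 was lower, beside 14.7%. Over whole libraries 5 of the 9 genes passed, beside 57.9% of all genes, 4 of them higher (31.1% of all genes) and 1 lower (26.8%). The median difference of the 61 pairs was 0.86 on the log2 scale, and that of all pairs 0.00.

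Of the 9 genes Fth1 differed most. It was higher in set 1 in 11 of 11 classes, by 1.54 in endothelial-like to 2.30 in choroid plexus-like nuclei (log2), and by 2.16 over whole libraries (SE 0.21, edgeR adjusted p = 0.000147), above 99.6% of the genes tested. In excitatory neuron-like nuclei its level was 297 to 468 CPM in set 1 and 53.9 to 94.6 CPM in set 2, which do not overlap. Ftl1 was higher in 10 of 10 classes, by 1.27 in fibroblast-like to 1.96 in mural-like nuclei, and by 1.42 over whole libraries (SE 0.18, edgeR adjusted p = 0.000433). The mural-like call of Ftl1 rests on 57 UMIs and was lost without TBI 1 (1.41), TBI 2 (1.46), BCAS+TBI 1 (1.98) or BCAS+TBI 2 (1.95), with edgeR adjusted p of 0.0517 to 0.116. Trf was called higher in 7 of 8 classes, the exception being fibroblast-like nuclei (0.90, edgeR adjusted p = 0.0811), and by 1.4953 over whole libraries (SE 0.33, edgeR adjusted p = 0.00552). In oligodendrocyte-like nuclei Trf was at 886 to 1444 CPM in set 1 and 390.1 to 603 CPM in set 2.

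Cp was higher in set 1 by 0.59 over whole libraries (log2, SE 0.14, edgeR adjusted p = 0.00759) and in 3 of 8 classes, excitatory neuron-like (1.37), microglia-like (1.16) and oligodendrocyte-like nuclei (1.10). In the 3 classes with the highest Cp it was not called, with -0.22 in endothelial-like, -0.03 in mural-like and 0.33 in fibroblast-like nuclei. Slc11a2 was lower in set 1, by -0.43 over whole libraries (SE 0.14, edgeR adjusted p = 0.0309) and by -0.48 in excitatory neuron-like nuclei. Its whole-library call held without BCAS 1 or BCAS 2 and was lost without any of the other 6 libraries, with differences of -0.35 to -0.40, and it was also lost without a scaling factor (-0.23, edgeR adjusted p = 0.195). Hmox2 was called only in astrocyte-like nuclei (0.73) of 9 classes, and Tfrc only in inhibitory neuron-like nuclei (0.29) of 7. Slc40a1 was called in none of 3 classes and gave -0.32 over whole libraries, which became a call without TBI 1 (-0.58) or TBI 2 (-0.57). Hmox1 gave 0.58 (SE 0.29, edgeR adjusted p = 0.126) over whole libraries. Without a scaling factor all genes of the whole-library fit moved up by a median of 0.20, and relative to that Tfrc stayed near 0: it was -0.03 with and 0.16 without the factor, where it was called, as was Hmox2 (0.28, edgeR adjusted p = 0.00505).

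**Figure D4:**
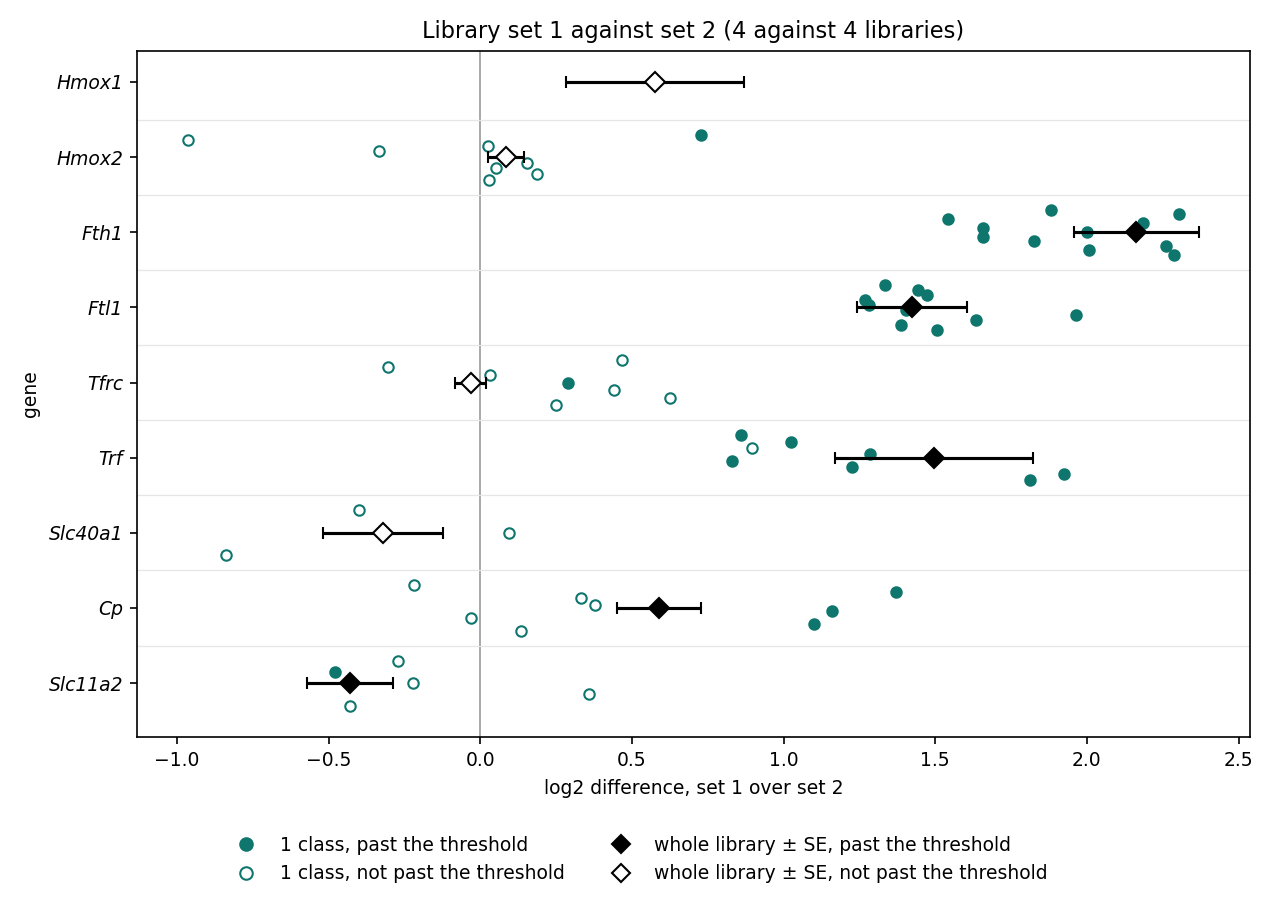
Log2 difference of set 1 over set 2 for each gene, as circles for single classes and diamonds with SE for whole libraries, filled where past the threshold. All Fth1 and Ftl1 symbols are filled and lie above 1.2, while Tfrc, Hmox2, Slc40a1 and Hmox1 are open over whole libraries.

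The difference between the sets went with gene length. Of 16026 protein-coding genes, those under 5 kb had a median difference of 0.77 (log2, set 1 over set 2), those of 5 to 10 kb 0.39, of 10 to 20 kb 0.18, of 20 to 40 kb -0.03, of 40 to 80 kb -0.21 and of 80 kb or more -0.41. Fth1 and Ftl1 belong to the first bin and lay above its upper quartile of 1.09, and Hmox1 at 0.58 lay inside the middle range of the second, 0.08 to 0.72. Tfrc (-0.03) lay at the median of its bin and Slc11a2 (-0.43) under its lower quartile of -0.24. Trf (1.4953) lay above the upper quartile of its bin, 0.25, Cp (0.59) and Hmox2 (0.08) lay above that of theirs, 0.04, and Slc40a1 (-0.32) under the lower quartile of its bin, -0.08. Length, ribosomal and mitochondrial share, depth and the sets move together here, and their parts in the ferritin difference were not tested. Inside single classes the ribosomal share moved the same way, for example 0.729% to 1.02% in oligodendrocyte-like nuclei of set 1 against 0.274% to 0.365% in set 2.

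**Figure D5:**
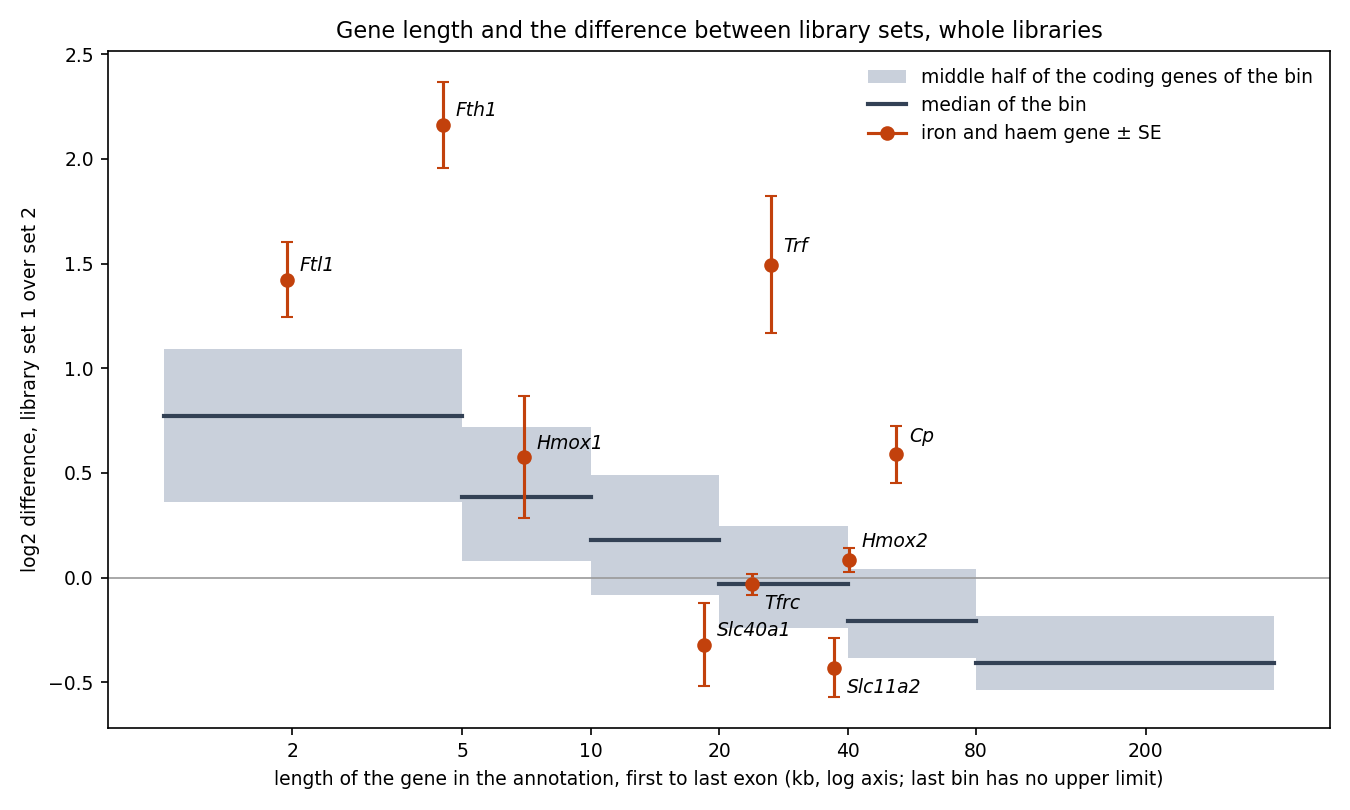
Log2 difference of set 1 over set 2 in whole libraries (vertical axis) by gene length in kb (log axis), with the median and middle range of protein-coding genes per length bin and the 9 genes with SE. Short genes were higher in set 1, Fth1 and Ftl1 above most of their bin, and Trf and Cp stand above genes of their length.

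Other genes of iron and haem handling were read as a list of 49, of which 48 were in the files by symbol (Hjv was not found by symbol), 42 could be tested in at least 1 class and 44 over whole libraries. None of 214 pairs passed in any of the 4 surgery contrasts by edgeR (3, 0, 1 and 1 at an unadjusted p under 0.05), and none of the 44 genes over whole libraries. For TBI the list came closest to the threshold with the mitochondrial iron importer Slc25a37 in oligodendrocyte precursor-like nuclei (log2 -1.06, SE 0.40) and ferrochelatase Fech in astrocyte-like nuclei (-0.54, SE 0.21). For BCAS they were Bach1, a haem-sensing repressor of Hmox1, in microglia-like nuclei (-0.69, SE 0.34), Cpox in astrocyte-like (0.61, SE 0.30) and Alad in excitatory neuron-like nuclei (0.37, SE 0.18). For BCAS+TBI against TBI they were the ferrireductase Steap3 in fibroblast-like nuclei (1.04), Lrp1, a receptor for haem-hemopexin, in oligodendrocyte-like (-1.11) and Uros in astrocyte-like nuclei (-1.76). For the interaction they were Ireb2 in striatal projection neuron-like (-1.02), Lrp1 in oligodendrocyte-like (-1.55) and Slc48a1, a haem transporter, in oligodendrocyte precursor-like nuclei (-1.65), all with an edgeR adjusted p of 1.

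Over whole libraries the list came closest with Tmprss6 (0.50), Alad (-0.17) and Cpox (-0.11) for TBI, and with haptoglobin Hp (2.09, SE 1.05), Bmp6 (-0.30) and Alad (0.31) for BCAS. Hp had 14 UMIs in the named classes. For BCAS+TBI against TBI they were Alad (0.53), Bmp6 (-0.37) and Hp (2.33), and for the interaction Uros (-0.33), Alad (0.45) and the ferroxidase Heph (0.65), all log2 and none past the threshold. Between the library sets 20 of the 44 genes passed, 12 higher and 8 lower in set 1, beside 57.9% of all genes called, 31.1% higher and 26.8% lower. Among the higher were Glrx5 (1.10), Alas2 (1.71), the ferritin iron chaperone Pcbp1 (0.87), Iscu (0.65), Cd163 (1.51), Slc48a1 (0.34), Nfe2l2 (0.57), Tmprss6 (0.99), Slc46a1 (0.61), Blvrb (0.33) and Hp (2.06). Among the lower were the iron regulatory proteins Ireb2 (-0.42) and Aco1 (-0.42), the ferritinophagy receptor Ncoa4 (-0.43), Flvcr1 (-0.34), Slc39a14 (-0.27), Fbxl5 (-0.17) and Blvra (-0.25), all log2 by edgeR. In neither direction was the list called more often than all genes. Gene length, which went with the difference between the sets, was not taken into account for these genes.

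Of the 48 genes, 12 had their highest mean in microglia-like, 9 in endothelial-like, 7 in choroid plexus-like, 6 in oligodendrocyte-like, 4 in astrocyte-like, 3 in fibroblast-like and 3 in ependymal-like nuclei. Some of these leads are near the floor, such as Hp in microglia-like (2.54 ± 4.58 CPM) and hemopexin (Hpx) in endothelial-like nuclei (1.39 ± 2.76 CPM). The same count was not made over all genes, so it does not set the list apart from other genes. The genes named for their level were chosen after their values were seen. Oligodendrocyte-like nuclei, which led for Fth1, Trf and Hmox2, also led for the haem synthesis enzyme Cpox (320 ± 37.0 CPM, next class 31.9), for Slc48a1 (198 ± 30.1 CPM, next class 56.6) and for Fech (67.1 ± 15.4 CPM). Endothelial-like nuclei, which led for Tfrc and Slc40a1, led for the haem and drug exporter Abcg2 (686 ± 179 CPM, next class 171), for Flvcr2 (92.3 ± 35.6 CPM) and for the metal importer Slc39a8 (50.7 ± 23.1 CPM, next class 7.86). Fibroblast-like nuclei, which led for Cp, led for Bmp6, the signal that sets hepcidin in liver (1399 ± 171 CPM, next class 705), and for Steap3 (53.7 ± 24.3 CPM). Hepcidin itself (Hamp) had 31 UMIs in the named classes. Astrocyte-like nuclei, low in Cp, were highest for the related ferroxidase Heph, at 33.3 ± 5.77 CPM. All values are SD over n = 8 libraries.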

How the data were processed

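Nuclei of 8 libraries had been sequenced, and the authors deposited a matrix of UMI counts for each of them. The file headers name Cell Ranger 7.0.0 as its source. The submitters' processing notes name GRCm38, mm10 and Seurat, and the counting of introns is not given in the sources used here. Of 53390 barcodes, 4922 failed a filter (500 UMIs, 300 genes, at most 5% mitochondrial) and 2908 were removed as likely doublets: Scrublet's own threshold marked at most 0.0506%, so the top 6% by score were taken out. Clusters (scanpy 1.11.5, Leiden, 30 components) were named by fixed markers at 10% detection or more. Counts were summed per library and class and tested, two-sided, with edgeR 4.0.16 (TMM, minimum count 10, quasi-likelihood, all 4 groups in 1 fit), with DESeq2 1.42.0 as an alternative. The fits were tested on simulated data. P-values of the surgery contrasts measure differences against the spread between the 2 libraries of a group. Each group holds 1 library of each set, so without the block this spread includes the difference between the sets. The 9 genes, lists, markers and tests were chosen with earlier results of these data known. All 9 genes were named, with the 3 pairs of lowest p per contrast and every pair past the threshold summarised by gene. Some genes of the wider list are not reported here by name.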

Additional observations from a re-analysis of the deposited data

How the results depend on the processing

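The count of the 9 genes called stayed at 0 in each surgery contrast under every alternative run, per class and over whole libraries. Between the library sets it was 27 with DESeq2 and 36 without a scaling factor (34 as reported, 29 to 33 leaving out 1 library), and 4 to 5 over whole libraries leaving out 1 library. The fits without a scaling factor or with RLE factors, and leave-one-out between the sets, were chosen after seeing the data. The replicate numbers of the labels went together in 3 groups and in reverse in BCAS+TBI, so they were not used as pairs, and the library set as a block is the crossed pairing: the median correlation of same-numbered deviations over 11 classes was 0.39 to 0.42 among control, BCAS and TBI and -0.45 to -0.46 with BCAS+TBI. With the replicate number as a block 0 of the genes were called in each contrast, Cp in endothelial-like nuclei kept an interaction of 1.1450, Fth1 over whole libraries differed by 0.51 with TBI, and Ftl1 with BCAS turned to 0.10.

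With single-nucleus gates, levels moved to 88.9 CPM for Hmox2 in oligodendrocyte-like, 535.7 for Ftl1, 592 for Tfrc and 201.5 for Slc40a1 in endothelial-like and 868 for Cp in fibroblast-like nuclei. Without high-UMI nuclei they were 609 for Tfrc, 182.5 for Slc40a1 and 555 for Cp. Gates turned the Hmox2 difference in inhibitory neuron-like nuclei (BCAS+TBI against TBI) to 0.0388. Over whole libraries, Cp with TBI turned to -0.0568 with the library set as a block and to -0.0217 with doublets kept, Ftl1 with BCAS to 0.0513 over all deposited barcodes, and Tfrc between the sets to 0.16 without a scaling factor. The cause was not tested. Leaving out 1 library left its group with a library of 1 set only. The surgery fits that did so had no term for the set, so their ranges include the difference between the sets. Fth1 in endothelial-like nuclei with TBI then ranged from -0.14 to 1.22. Over whole libraries the differences with TBI ranged from -0.65 to 1.04 for Fth1, -0.40 to 0.61 for Ftl1, -1.29 to 0.24 for Trf, -0.30 to 0.24 for Cp, -0.41 to 0.0046 for Slc40a1 and -0.28 to 0.067 for Slc11a2. With BCAS they ranged from -0.64 to 1.10 for Fth1, -0.62 to 0.55 for Ftl1, -0.27 to 1.26 for Trf, -0.37 to 0.15 for Cp, -0.39 to 0.0643 for Slc40a1 and -0.26 to 0.12 for Slc11a2. Depth limits Hmox1, with 155 UMIs in all.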
